A study of Mus musculus with 24 samples.

Results

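Cultured primary mouse hepatocytes exposed to 20 mM acetaminophen were compared with liver tissue from mice given 500 mg/kg acetaminophen, hairpin by hairpin. Hairpins were included when the deposited table held at least 100 counts in either of the 2 columns, which kept 144 of 1186 entries. Of these, 90 reached 100 counts in both columns, 16 in hepatocytes only and 38 in liver only. The 144 hairpins held 98.1% of the hepatocyte counts and 97.1% of the liver counts. Just inside the threshold lay mir-690 with 104.6 counts in its higher column and mir-106a with 113.2, and just outside lay mir-574 with 94.1 and mir-8110 with 91.2.

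The series measured small RNA by Ion Torrent sequencing in 24 samples from 4 materials, of which the hepatocytes and the liver tissue are used here. Besides acetaminophen alone, each material had an untreated control and a group given acetaminophen and also granulocyte colony-stimulating factor (G-CSF), a cytokine that drives granulocyte production, at 1 µg/ml in culture and 100 µg/kg in mice. Acetaminophen reached the cells as 20 mM in the medium and the liver by way of the whole animal, so material and route of exposure cannot be told apart. The labels name no strain, age, exposure time or number of mice or cultures. A piece of liver also contains blood, vessels and connective tissue, which a culture of hepatocytes is meant to leave out. Each condition is 1 column that combines its PGM and Proton libraries, so neither side has a replicate.

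A microRNA is cut from a hairpin precursor into a mature strand that guides repression of messenger RNAs, mainly through its seed, bases 2 to 8. Liver parenchyma is known for miR-122, and several other microRNAs are known from particular cells: miR-451a and miR-144 from red blood cells, miR-223 from granulocytes, miR-143 and miR-145 from smooth muscle and stellate-type cells, miR-126 from endothelium. Acetaminophen at high doses injures hepatocytes through a reactive metabolite that depletes glutathione.

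The mature sequences below are those the comparison turned on. Capitals mark the seed, each strand is written 5′ to 3′, and the sequences are those of RefSeq (GRCm38.p6). The first set belongs to microRNAs that were lower in hepatocytes than in liver:
miR-451a: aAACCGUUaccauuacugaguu
miR-144-3p: uACAGUAUagaugauguacu
miR-223-3p: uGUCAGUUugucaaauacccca
miR-142a-3p: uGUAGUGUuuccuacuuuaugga
let-7a-5p: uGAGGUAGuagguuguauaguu
let-7c-5p: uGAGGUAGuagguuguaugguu
let-7f-5p: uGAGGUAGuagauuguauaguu
miR-125a-5p: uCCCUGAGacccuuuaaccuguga
miR-125b-5p: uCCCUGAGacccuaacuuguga
miR-21a-5p: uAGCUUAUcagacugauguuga

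The second set belongs to microRNAs that were higher in hepatocytes in the mature table, except miR-878-3p, which had no mature count and is shown for its hairpin and for the bases it has in common with miR-489-3p:
miR-192-5p: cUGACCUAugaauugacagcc
miR-215-5p: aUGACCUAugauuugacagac
miR-194-5p: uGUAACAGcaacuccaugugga
miR-30c-5p: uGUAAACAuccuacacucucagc
miR-130a-3p: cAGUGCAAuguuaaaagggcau
miR-155-5p: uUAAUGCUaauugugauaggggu
miR-2137: gCCGGCGGgagccccagggag
miR-489-3p: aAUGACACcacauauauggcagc
miR-878-3p: gCAUGACAccacacuggguaga

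The let-7 sequences have one seed, as do the 2 miR-125 sequences and the miR-192 and miR-215 pair. Near-identical sequences matter for the counts, because reads that match several hairpins had been divided among them. A run of 10 bases was common to miR-215-5p and miR-192-5p, and a run of 11 bases to miR-489-3p and miR-878-3p, where it starts at different positions of the 2 strands. Of the 144 hairpins, 54 fell into 24 groups. Within a group, counts lay within 10% or 3 counts of a neighbour in all 6 hepatocyte and liver columns. Such hairpins are not independent, and the 144 entries amount to 114 groups. Near-copies with less equal counts, such as mir-21a and mir-21b, stay in separate groups.

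The hairpin columns held 179751 counts for acetaminophen hepatocytes and 111316 for acetaminophen liver, and the other 4 hepatocyte and liver columns held 139361 to 1307520. The mature table was shallower, with 5330 and 19695 counts. Hairpin counts were 33.7 times the mature counts in acetaminophen hepatocytes but 5.65 times in acetaminophen liver, against 25.1 to 31.4 in the other 4 columns, so the acetaminophen liver column stood apart in how its counts fell between the 2 tables. Intervals are 95% and cover counting error only.

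Most hairpins that differed were lower in the hepatocytes. A hairpin was called when its share of the column differed by 2-fold or more and the interval of that ratio did not include 1. On this rule 75 of 144 hairpins were lower in acetaminophen hepatocytes (52.1%), 30 were higher (20.8%) and 39 were not called, and 72.9% were called in either direction. The median log2 ratio of hepatocytes over liver was -1.22. The count minimum bears on this split. The 38 hairpins with 100 counts in liver only have a ratio below 1 by construction, since the liver total is the smaller. The 16 with 100 counts in hepatocytes only can fall on either side of 1. With each read-sharing group counted once, 59 of 114 were lower (51.8%) and 26 were higher (22.8%), 74.6% in all. The 75 lower hairpins held 13.2% of the hepatocyte counts and 62.2% of the liver counts, while the 30 higher ones held 52.6% and 9.23%.

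These shares depend on what else fills each column. TMM factors moved every log2 ratio up by 0.83 and DESeq2 size factors by 1.02, which changed the calls to 41 higher and 56 lower, and to 45 higher and 52 lower. The part of the calls that was higher thus went from 28.6% to 42.3% and 46.4%. Of the 105 called hairpins 82 to 105 kept their call under these scalings and with mir-122 or the repeat-like and abundant-RNA-like entries left out of the totals.

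**Figure D1:**
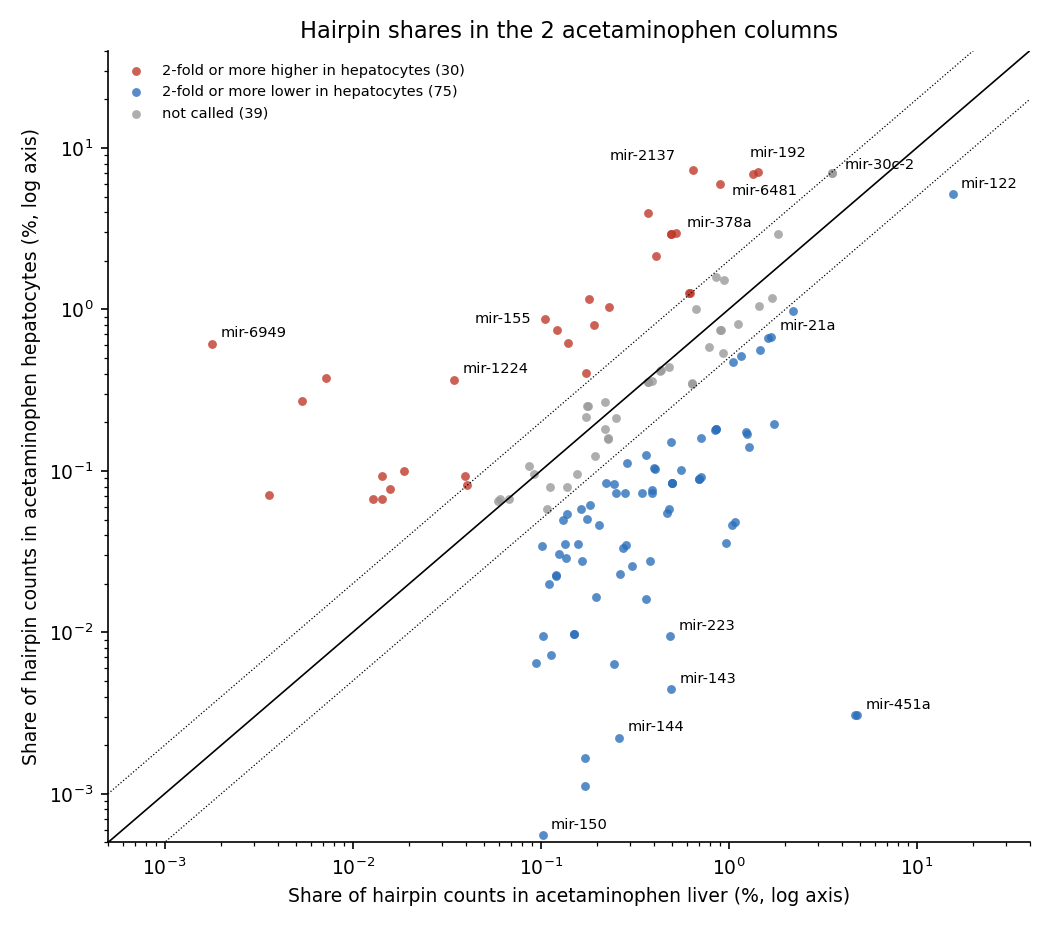
Share of hairpin counts in acetaminophen liver (x, %, log axis) and acetaminophen hepatocytes (y, %, log axis), 1 point per hairpin, with 30 higher (red), 75 lower (blue) and 39 uncalled (grey). The solid line marks equal shares and the dotted lines 2-fold; mir-486, with a count of 0 in hepatocytes, is drawn at 3 counts. mir-451a lies at 4.82% in liver and 0.00306% in hepatocytes, and mir-6949 at 0.00180% and 0.614%.

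The 6 hepatocyte and liver columns gave the only test against spread between columns, with the 3 treatments standing in for replicates of a material. edgeR's quasi-likelihood test with Benjamini-Hochberg adjustment called 17 of 296 hairpins (5.74%), 4 higher (1.35%) and 13 lower (4.39%) in hepatocytes, and 85 had an unadjusted p under 0.05 (28.7%). All 144 hairpins were tested, and 3 were called higher (mir-6949, mir-1224 and mir-2137) and 11 lower (mir-451a, mir-451b, mir-144, mir-486, mir-3107, mir-143, mir-145a, mir-145b, mir-6402, mir-150 and mir-223). Those 14 hairpins made up 11 read-sharing groups. Without the columns with G-CSF the same test called 0 of 295 hairpins, with 35 at an unadjusted p under 0.05, and the log2 differences of mir-451a and mir-143 were -8.02 and -5.99, each with an adjusted p of 0.0544. Without the control columns it called 90 of 242. Without the acetaminophen columns it called 11 of 363, and mir-223 and mir-2137 were not among them (adjusted p 0.175 and 0.185). The DESeq2 Wald test called 45 higher and 48 lower of 296. On the mature table edgeR called 5 of 109 higher (4.59%) and 8 lower (7.34%), 11.9% in all, with 32.1% at an unadjusted p under 0.05.

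The most abundant hairpins differed between the 2 columns. In hepatocytes the first 7 places went to mir-2137 (7.28%), mir-192 (7.11%), mir-30c-2 (6.97%), mir-30c-1 (6.97%), mir-215 (6.89%), mir-6481 (5.94%) and mir-122 (5.16%). In liver mir-122 came first with 15.6%, followed by mir-451a (4.82%), mir-451b (4.72%), both mir-30c hairpins (3.56% and 3.54%) and mir-126a (2.19%). The 10 largest hairpins held 56.2% of the hepatocyte counts and 41.4% of the liver counts, and 3 hairpins stood in both sets of 10.

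Red blood cell hairpins showed the widest gap. The mature strand of mir-451a is cut by Argonaute 2 instead of Dicer. mir-451a had 6, 5.5 and 1.5 counts in control, acetaminophen and acetaminophen with G-CSF hepatocytes. Counts in the matching livers were 1773, 5369 and 9954, and its shares there 0.136%, 4.82% and 0.908%. Its share was 0.00306% in acetaminophen hepatocytes (Wilson interval 0.00153 to 0.00728%) and 4.82% in acetaminophen liver (4.70 to 4.95%), 1576-fold lower in the cells (interval 663 to 3939). All 3 hepatocyte columns lay below all 3 liver columns, and edgeR gave a log2 difference of -8.25 ± 1.19 (SE) with an adjusted p of 0.00431 over the 3 treatments. mir-451b lies on the opposite strand of the same stretch, chr11:78073170-78073241 in GRCm38, and its counts followed those of mir-451a. No source used here says how the authors' counting treated strand, so the pair counts as 1 observation.

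mir-144, encoded next to mir-451a on the same strand at chr11:78073005-78073070, had 4 counts in acetaminophen hepatocytes and 291.5 in the liver, 118-fold lower (interval 45.5 to 436). mir-486 had no count in the hepatocytes and 192.3 in the liver. With the hepatocyte count set to a floor of 3, it was 103-fold lower. Its near-copy mir-3107 had 2 and 192.3 counts, a ratio of 155 (interval 42.3 to 1289). Together the 4 erythroid hairpins summed to 15 counts in acetaminophen hepatocytes and 11106 in liver. Their summed share was 0.00179 to 0.00834% over the 3 hepatocyte columns and 0.299% in control, 9.98% in acetaminophen and 1.89% in acetaminophen with G-CSF liver. All 4 were called lower under every scaling, with a median log2 of -8.73 against -1.22 for all 144 hairpins.

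Leukocyte hairpins were lower in hepatocytes, with the exception of mir-155. All 3 myeloid hairpins in the comparison were called lower, with a median log2 of -5.26. mir-223, a regulator of granulocyte maturation, had 17 counts (0.00946%) in hepatocytes and 544 (0.489%) in liver, 51.7-fold lower (interval 32.0 to 89.4). Its shares in the 3 hepatocyte columns ran from 0.00405 to 0.0101% and in the 3 liver columns from 0.0894 to 0.489%, without overlap (edgeR adjusted p 0.0136, log2 difference -4.33 ± 0.83). mir-142, a hairpin of the whole blood lineage, was 38.4-fold lower (20.7 to 72.0) and mir-146a, induced by NF-κB, 5.46-fold lower (3.80 to 7.96).

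Among the lymphoid hairpins, mir-150 and mir-342 were called lower. mir-150, found in mature lymphocytes, had 1 count in the hepatocytes and 114 in the liver, a ratio of 184 (interval 32.4 to 7334). It had 1 to 2 counts in each hepatocyte column against 114 to 1287 in liver, where its shares were 0.0984 to 0.113%. mir-342 was 3.46-fold lower (2.81 to 4.30), and its call was lost under both TMM and DESeq2 scaling.

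mir-155 went the other way. This hairpin, from the Mir155hg transcript and known as an inflammation-induced microRNA, had 1571.5 counts (0.874%) in acetaminophen hepatocytes and 118 (0.106%) in liver, 8.25-fold higher (interval 6.84 to 10.03). Its mature strand had 46 counts in hepatocytes and none in liver. With the liver count set to a floor of 3, it was 56.7-fold higher, and the interval started at 44.3. In the control pair its share was 0.0350% in cells and 0.0480% in tissue, and in the G-CSF pair 0.647% and 0.0301%. The 3 hepatocyte columns therefore overlapped the liver columns only through the control cells. Over the inflammation and injury list 4 of 5 hairpins were called lower and 1, mir-155, higher, and 3 were lower and 1 higher under TMM and DESeq2 factors.

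Vascular and connective tissue hairpins were lower too. All 5 mesenchymal and stellate hairpins were called lower under every scaling, with a median log2 of -4.48. mir-143 had 9.5, 8 and 4 counts in the 3 hepatocyte columns and 2331, 548.5 and 4263 in the livers. Its shares in the control, acetaminophen and G-CSF livers were 0.178%, 0.493% and 0.389%. In the acetaminophen pair it was 111-fold lower (interval 55.7 to 258), and edgeR gave -6.16 ± 0.87 on the log2 scale with an adjusted p of 0.00431. mir-145a, which is encoded beside mir-143 and acts in smooth muscle, was 22.4-fold lower (17.95 to 28.1). mir-6402 followed mir-145a in every column, with 64.2 counts in acetaminophen hepatocytes and 1073 in liver, and was 27.01-fold lower (21.0 to 35.4).

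mir-214, linked to fibrosis, was 4.46-fold lower (3.45 to 5.80), and mir-10b 11.96-fold lower (8.10 to 18.1). The summed share of the list was 0.188% in acetaminophen hepatocytes and 3.24% in the liver. mir-126a, the endothelial hairpin in an exon of Egfl7, was less far apart, with 1764 counts (0.981%) against 2442 (2.19%), 2.24-fold lower (2.10 to 2.38). It was 1.26-fold lower under TMM factors and was called neither there nor under DESeq2 size factors. Its mature strands were not called. miR-126a-3p was 1.58-fold lower, and miR-126a-5p stood at 0.469% in hepatocytes and 0.442% in liver. The other hairpin of the list, mir-126b, had 0 and 1 counts.

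Read as markers of the cells in each column, these lists differed by unequal amounts. The summed share of erythroid hairpins was 1196-fold lower in acetaminophen hepatocytes than in liver, of mesenchymal ones 17.3-fold, of myeloid ones 22.1-fold and of the endothelial pair 2.24-fold. The lymphoid list was 1.68-fold higher in the hepatocytes, with 0.965% against 0.576%, and most of its hepatocyte counts were those of mir-155. In such bulk columns fewer cells of a type and less RNA per cell cannot be told apart. Of the lists for tissues outside the liver, striated muscle had 16 counts in hepatocytes and 20 in liver, and neural 24.2 and 34.4. The pancreas list had 2 counts in hepatocytes and 58 in acetaminophen liver, against 7 to 7.33 in the other 2 livers, which were sequenced more deeply. Its summed share was 0.0521% in acetaminophen liver, 0.000561% in control liver and 0.000639% in liver with G-CSF. No hairpin of those 3 lists reached 100 counts. Their part in the results was not tested.

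**Figure D2:**
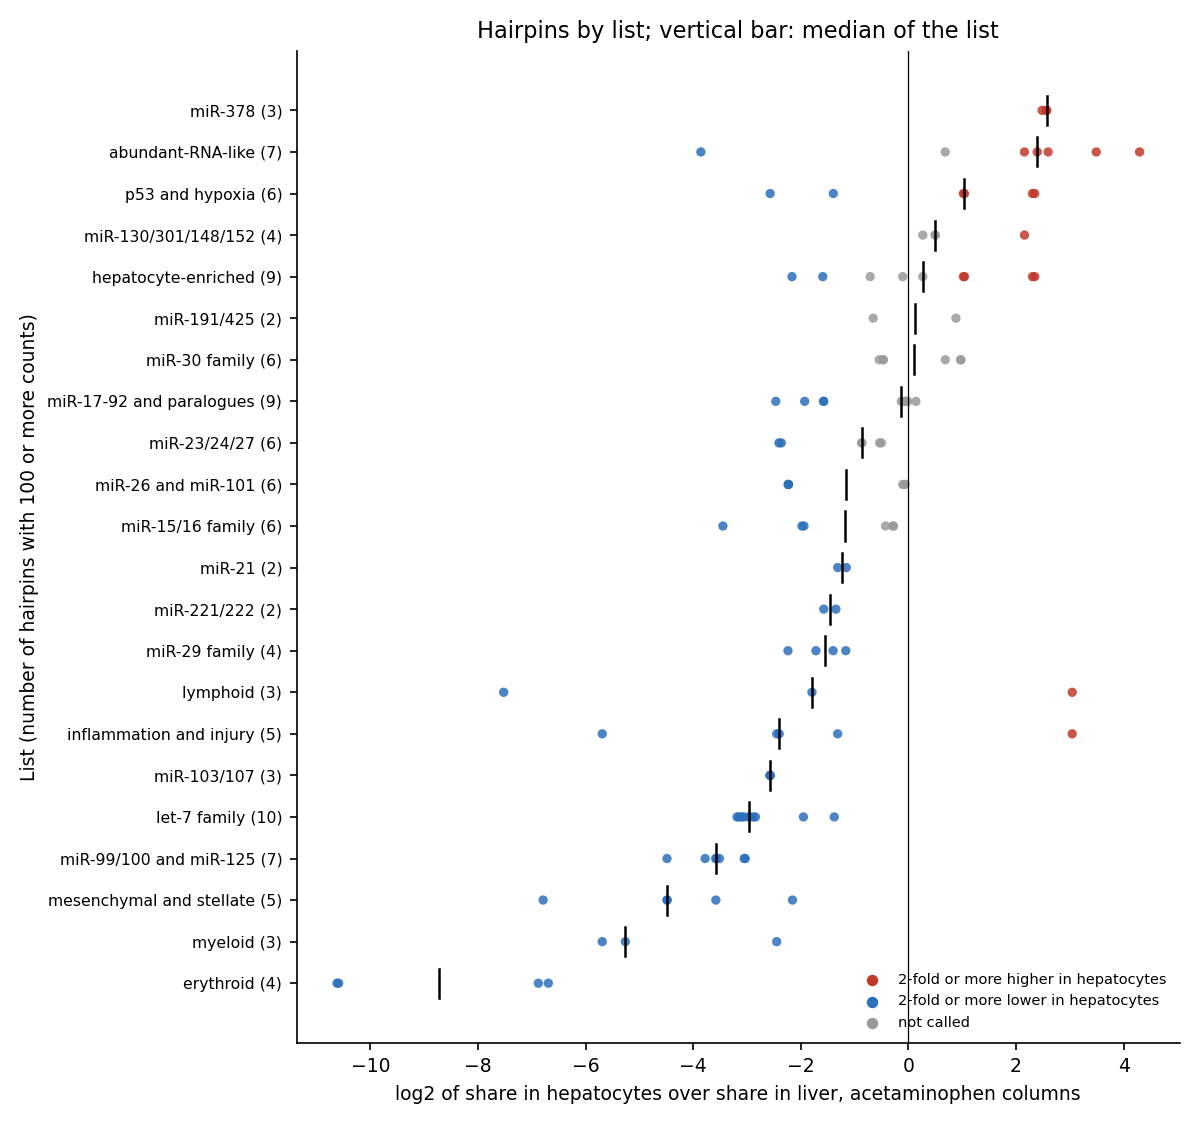
log2 of the share in acetaminophen hepatocytes over that in acetaminophen liver for each hairpin (points; red higher, blue lower, grey uncalled), by list, with the list median as a black bar and the number of hairpins in parentheses; only lists with at least 2 hairpins are drawn. The erythroid median lies at -8.73 and the miR-378 median at 2.57, and mir-486 is drawn with its hepatocyte count at the floor.

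The let-7 family was lower in hepatocytes throughout. Its mature strands repress growth genes such as Lin28 and Hmga2, and all 10 hairpins with 100 counts were called lower, with a median log2 of -2.96. let-7a-1 had 352.9 counts (0.196%) in hepatocytes and 1934 (1.74%) in liver, 8.85-fold lower (interval 7.89 to 9.94). let-7c-1 was 7.41-fold lower (6.54 to 8.41) and let-7d, the least apart, 2.60-fold lower (2.18 to 3.13). The summed share of the family was 1.17% in acetaminophen hepatocytes and 8.54% in liver, with 2.73% and 12.1% in the controls and 0.823% and 19.1% in the G-CSF pair, so every hepatocyte column lay below every liver column. Under TMM factors 9 of 10 stayed lower, and under DESeq2 size factors 8 of 10. Over the 3 treatments edgeR called 0 of the 10, with 5 at an unadjusted p under 0.05, and DESeq2 called 5 lower.

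Families encoded in part beside let-7 hairpins were lower as well. All 7 hairpins of the miR-99/100, miR-125 and miR-10 group were called lower under every scaling, with a median log2 of -3.58. mir-125b-1 had 29 counts in hepatocytes and 403.1 in liver, 22.4-fold lower (15.4 to 33.9). mir-125b-2 was 13.7-fold lower (10.2 to 18.8), mir-125a 11.9-fold lower (8.75 to 16.6) and mir-99a 8.19-fold lower (6.18 to 10.8). mir-99a and let-7c-1 lie within chr16:77598936-77599750, with log2 ratios of -3.03 and -2.89, and mir-100 and let-7a-2 within chr9:41531425-41536811, with -3.05 and -3.19.

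Other broadly expressed hairpins were lower as well. The hairpins mir-103-1, mir-103-2 and mir-107, which act on insulin signalling, had nearly equal counts and were 5.95-fold lower (4.96 to 7.15) as 1 read-sharing group. mir-26a-1 was 4.69-fold lower (4.13 to 5.34), mir-23b 5.31-fold lower (4.36 to 6.501) and mir-93 5.53-fold lower (4.67 to 6.55). mir-31 was 4.47-fold lower (3.91 to 5.14), the only one of the biliary and epithelial list above 100 counts. mir-340 was 15.7-fold lower (8.83 to 30.2) and mir-365-1 15.4-fold lower (9.19 to 25.9).

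The miR-29 hairpins, whose product represses collagens, were called lower in 4 of 4 cases, led by mir-29b-2 at 4.72-fold (3.86 to 5.78). mir-29c had 1003 counts (0.558%) and 1639 (1.47%), 2.64-fold lower (2.44 to 2.86). Under either TMM or DESeq2 factors 1 of the 4 stayed lower. mir-21a, an oncogenic and injury-associated microRNA encoded in Vmp1, was 2.49-fold lower (2.32 to 2.68). Its near-copies mir-21b and mir-3965 were 2.23-fold and 2.44-fold lower, and none of the 3 was called under TMM or DESeq2 factors. mir-221 was 2.98-fold lower (2.43 to 3.66) and mir-222 2.55-fold lower (1.96 to 3.32), and both calls were also lost there.

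The remaining families were mixed. Over all 144 hairpins 52.1% were called lower and 20.8% higher, so 4 of 9 or 3 of 6 lower lies near the general share. Of the miR-17-92 cluster and its paralogues, which are tied to proliferation, 4 of 9 hairpins were lower and 5 were not called, with 2 lower under TMM factors, and 1 lower and 2 higher under DESeq2 size factors. Of the miR-15/16 family, which restrains the cell cycle, 3 of 6 were lower, among them mir-15b at 3.94-fold (3.32 to 4.71), while mir-16-1 was 1.21-fold lower (1.12 to 1.32) and not called; 3 and 1 of the 6 were lower under TMM and DESeq2 factors. In the miR-23/24/27 clusters 2 of 6 were lower, and of the miR-26 and miR-101 families 3 of 6, all of them miR-26. mir-191 and mir-425, cut from a common transcript, were 1.85-fold higher (1.71 to 1.99) and 1.58-fold lower (1.30 to 1.90), and neither was called; mir-191 was called higher under TMM and DESeq2 factors, at 3.28-fold and 3.74-fold. Of the p53 and hypoxia list 4 of 6 were higher, namely mir-192, mir-215 and both mir-194 hairpins, and mir-34a and mir-107 were lower, with 4 higher and 1 lower under both factors. No hairpin of the 81 in the Sfmbt2 repeat cluster or the 13 SINE-like entries reached 100 counts, and 1 of 197 mirtron-type entries did.

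The hepatocyte-enriched list split. mir-122, the liver's most abundant microRNA, which acts on lipid metabolism, was lower in the cultured cells than in the tissue. It had 9279 counts, 5.16% of the hepatocyte column (Wilson interval 5.06 to 5.27%), and 17327 counts, 15.6% of the liver column (15.3 to 15.8%), 3.02-fold lower (2.94 to 3.09). Its shares were 4.999%, 5.16% and 3.10% in control, acetaminophen and G-CSF hepatocytes and 9.56%, 15.6% and 5.69% in the livers, so all hepatocyte columns lay below all liver columns. The difference fell to 1.70-fold under TMM factors and was not called there or under DESeq2 size factors. mir-802, a regulator of glucose metabolism, was 4.49-fold lower (3.35 to 6.08).

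mir-192 and mir-215, one read-sharing group with a common seed, were higher in the cells. mir-192 had 12777 counts (7.11%) in hepatocytes and 1601 (1.44%) in liver, 4.94-fold higher (interval 4.69 to 5.21), and mir-215 was 5.09-fold higher (4.83 to 5.37). Over the 3 treatments the share of mir-192 ran from 3.70 to 7.11% in hepatocytes and from 1.44 to 1.93% in livers, without overlap. mir-194-2, encoded with mir-192 within chr19:6264643-6264932, was 2.03-fold higher (1.86 to 2.21), and mir-194-1, encoded with mir-215 within chr1:185313319-185313692, 2.06-fold higher (1.89 to 2.24). In the control and G-CSF pairs both had smaller shares in the cells than in the tissue. mir-194-1 stood at 0.885% against 1.52% in the control pair and 0.266% against 0.505% in the G-CSF pair. For mir-194-2 these shares were 0.900% against 1.58% and 0.267% against 0.551%. mir-148a, mir-101b and mir-455 were not called. Over the 9 hairpins 4 were higher, 2 lower and 3 not called, and the summed share was 22.4% in hepatocytes and 20.5% in liver. Under TMM factors 5 were higher and 1 lower. edgeR called 0 of the 9 over the 3 treatments, with 2 at an unadjusted p under 0.05, and DESeq2 called 3 higher.

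The miR-30 family, which shares a seed and is abundant in many epithelia, was not called in any of 6 hairpins, with a median log2 of 0.11. mir-30c-1 had 12529 counts (6.97%) against 3946 (3.54%), 1.97-fold higher (interval 1.90 to 2.04), just under the 2-fold threshold. mir-30b was 1.61-fold higher (1.53 to 1.69), and mir-30a 1.46-fold lower (1.37 to 1.55). Under TMM or DESeq2 factors 3 of the 6 were called higher. In the mature table miR-30c-5p stood at 15.9% in hepatocytes and 1.53% in liver, 10.4-fold higher (9.06 to 11.8).

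mir-378a, encoded in the gene of the metabolic coactivator Ppargc1b, was higher in hepatocytes together with its copies mir-378b and mir-378c. mir-378a had 5309 counts (2.95%) against 587.6 (0.528%), 5.595-fold higher (5.13 to 6.10), and all 3, which form 1 read-sharing group, were called under both factors. mir-130a was 4.46-fold higher (3.92 to 5.11) and mir-130c, with the same seed, 4.16-fold (3.60 to 4.82). mir-380, a hairpin of the imprinted Dlk1-Dio3 region, was 5.22-fold higher (4.74 to 5.76), the single one of the 47 tabulated hairpins of that region with 100 counts. mir-193b was 2.35-fold higher (1.68 to 3.36) although mir-365-1, its neighbour within chr16:13449523-13453926, was 15.4-fold lower.

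Several of the largest excesses in hepatocytes belonged to hairpins with no mature count. mir-6949, in an intron of Mcpt8 at chr14:56082401-56082468, had 1104 counts in hepatocytes and 2 in liver, a ratio of 342 (interval 94.4 to 2826). It had 74, 1104 and 1116 counts in the 3 hepatocyte columns and 3, 2 and 14 in the livers, and edgeR gave 8.62 ± 1.195 on the log2 scale with an adjusted p of 0.00431. mir-1224, a mirtron in an intron of Vwa5b2, was 10.6-fold higher (7.75 to 15.3; edgeR adjusted p 0.0113). Neither hairpin had a mature count in either acetaminophen column.

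mir-878 was 52.5-fold higher (26.5 to 122) with 678.5 against 8 counts, and mir-489 50.2-fold higher (22.9 to 137) with 486.5 against 6. mir-489 lies in an intron of Calcr, and of the pair only miR-489 had mature counts, 56 in hepatocytes and 14 in liver. mir-6481 had 10681 counts (5.94%) against 997 (0.896%), 6.63-fold higher (6.22 to 7.09), and mir-3066 2096 against 201, 6.46-fold higher (5.59 to 7.501). Neither had a mature count. mir-1948 was 10.7-fold higher (9.69 to 11.9) with 7124 counts against 412.5, and mature counts of 0 and 4.

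mir-2137 did have a mature product. It had 13078 hairpin counts (7.28%, Wilson interval 7.16 to 7.40%) in acetaminophen hepatocytes and 720 (0.647%, 0.601 to 0.696%) in liver, 11.3-fold higher (10.4 to 12.1). Over control, acetaminophen and G-CSF its share was 0.164%, 7.28% and 6.91% in hepatocytes and 0.0200%, 0.647% and 0.209% in livers. Control hepatocytes therefore lay below both treated livers, while each hepatocyte column lay above its matching liver (edgeR adjusted p 0.0373). The mature strand was 12.2-fold higher (9.31 to 16.1). mir-2137 belongs to a list of entries reported to resemble fragments of abundant RNAs, of which 5 of 7 were higher, 1 lower (mir-690) and 1 not called (mir-6239). Under TMM and DESeq2 factors 6 of the 7 were higher, mir-6239 among them. The list summed to 10.4% of hepatocyte and 2.04% of liver counts.

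**Figure D3:**
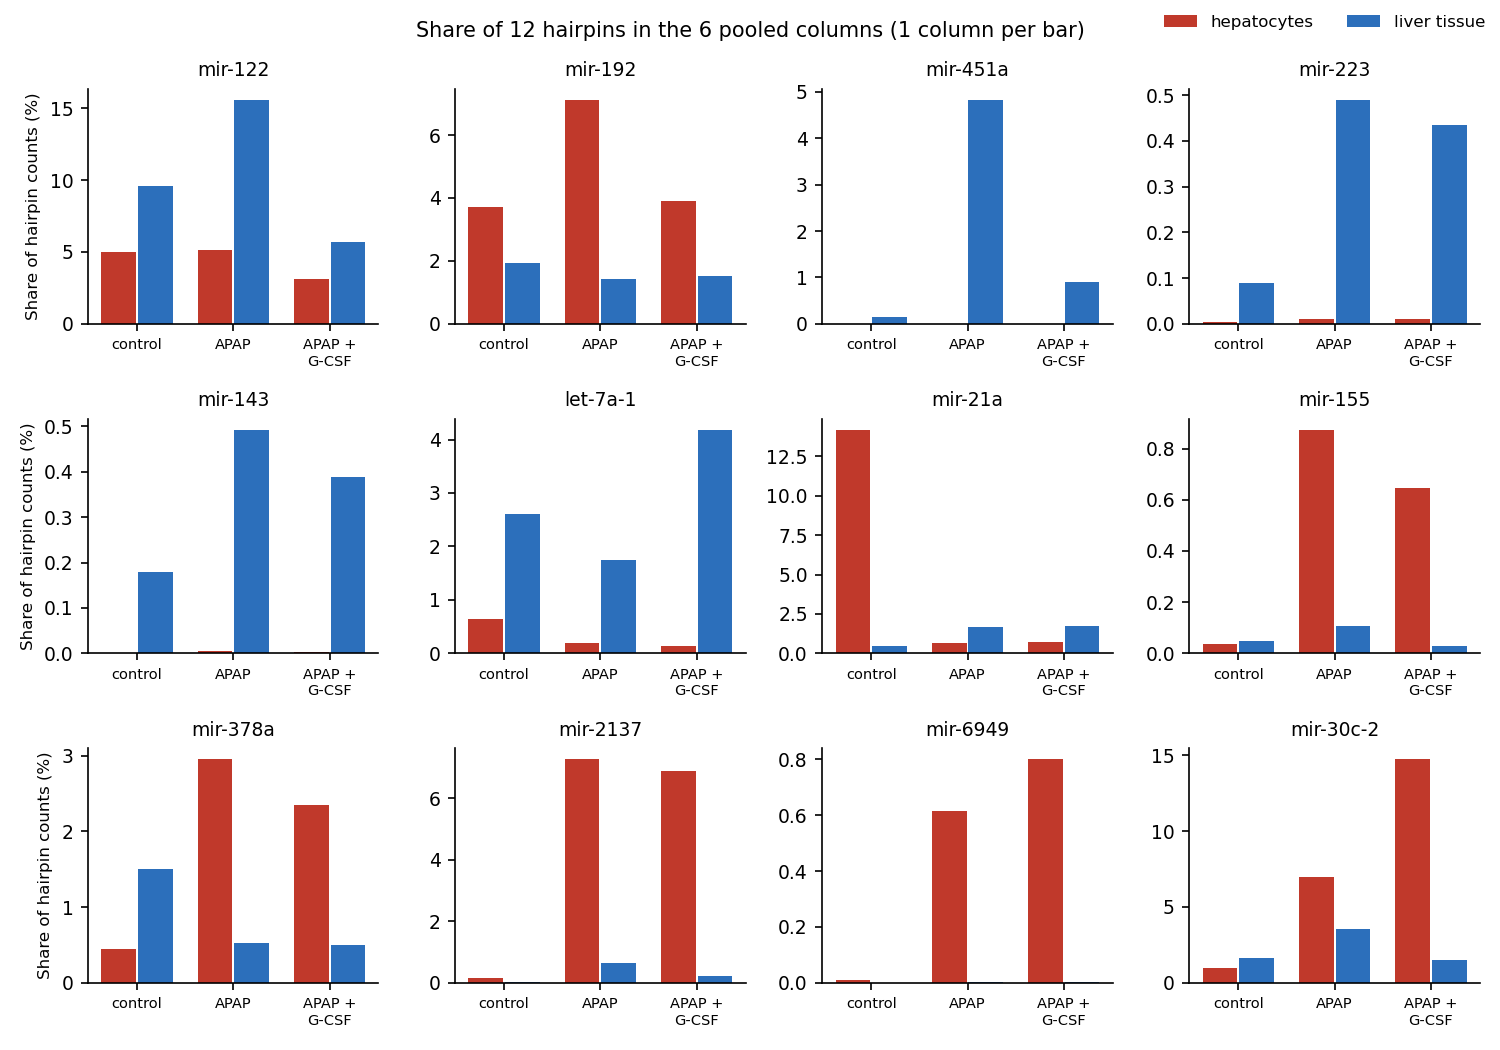
Share of hairpin counts (%) of 12 hairpins in hepatocytes (red) and liver tissue (blue) for control, acetaminophen (APAP) and acetaminophen with G-CSF, 1 pooled column per bar and each panel with its own axis from 0. mir-451a is near 0 in all 3 hepatocyte columns and reaches 4.82% in acetaminophen liver, and mir-21a stands at 14.2% in control hepatocytes against 0.679% in acetaminophen hepatocytes.

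The mature table, read arm by arm, gave the same direction for most hairpins. Of 113 mature microRNAs with at least 10 counts in either column, 20 were higher (17.7%) and 47 lower (41.6%) in hepatocytes, 59.3% in all. Under TMM factors 24 were higher and 22 lower, and under DESeq2 size factors 27 and 19. Set against the hairpins, 83 called hairpins had mature arms with enough counts, and 81 of these had the same sign in both tables. Of the 30 higher hairpins 17 had enough mature counts, and 14 of these were also called higher in the mature table. Of the 75 lower ones 66 had enough, and 46 of these were called lower. The 8 hairpins called higher in the mature table alone were mir-30b, both mir-30c, mir-191, mir-140, mir-148a, mir-148b and mir-152.

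Both exceptions were higher as hairpins and lower as mature strands. mir-5121 had 121 hairpin counts against 14.25 but 7 mature counts against 57, and lies over exons of Rpl13a and Snord33, a small nucleolar RNA. mir-6238 had 127 hairpin counts against 4 and 6 mature counts against 52. In liver both had fewer hairpin than mature counts, as did mir-489.

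The ratio of hairpin to mature counts was higher in hepatocytes for 49 of 49 hairpins with at least 10 mature counts in both columns, with a median of 20.0 against 5.65. miR-122-5p alone took 40.1% of mature counts in acetaminophen liver and 17.3% in hepatocytes. Hairpin shares of 1 hairpin therefore need not match mature shares in size, even where they match in direction: mir-451a was 1576-fold lower as a hairpin and 315-fold lower as a mature strand (1 against 1163 counts). Of the 16 hairpins with no mature count in either column, 8 were higher, 3 lower and 5 not called, and they held 12.5% of hepatocyte and 9.72% of liver hairpin counts.

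**Figure D4:**
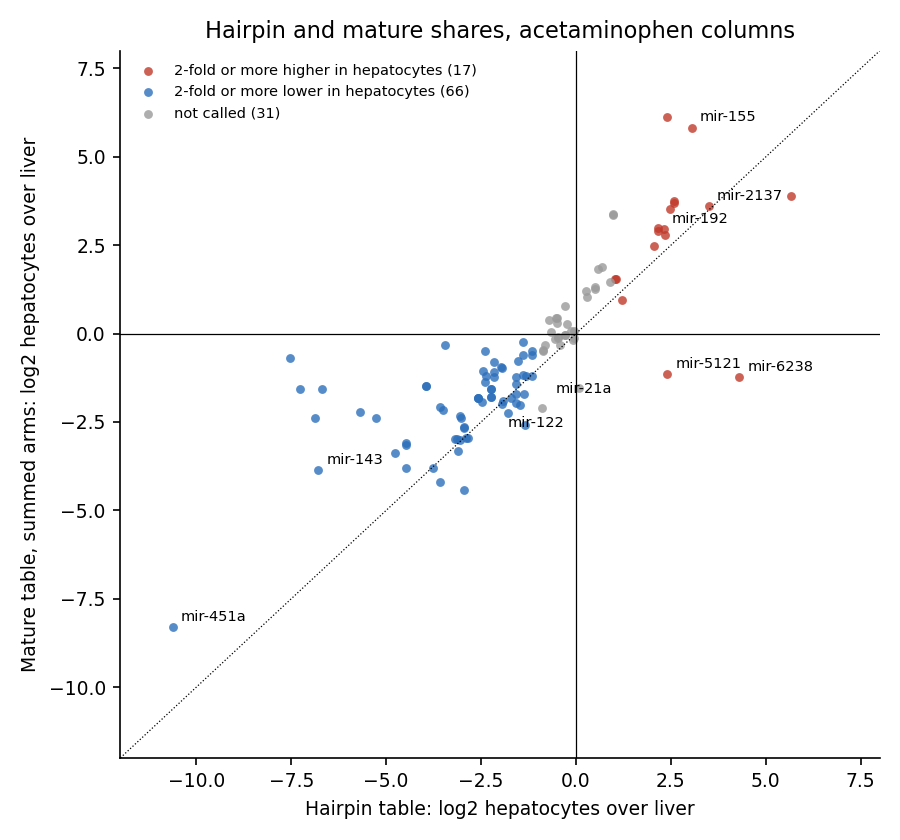
log2 of hepatocytes over liver under acetaminophen in the hairpin table (x) and for the summed mature arms (y), for the 114 hairpins with enough mature counts; colours give the hairpin call and the dotted line equal ratios. Points with 0 mature counts are drawn at a floor of 3 counts. mir-5121 and mir-6238 lie at the lower right.

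The control and G-CSF pairs show which differences also stood without acetaminophen or with G-CSF added. These pairs have their own columns and share none with the acetaminophen pair. In the control pair 30 of 221 hairpins were higher (13.6%) and 124 lower (56.1%), 69.7% in all, and in the G-CSF pair 33 of 225 were higher (14.7%) and 142 lower (63.1%), 77.8% in all. Of the 105 hairpins called under acetaminophen, 78 had the same sign in the control pair and 100 in the G-CSF pair. Part of this agreement comes with a tilt common to all 3 pairs. The median log2 ratio of the 144 hairpins was -1.22 in the acetaminophen pair, -1.15 in the control pair and -1.40 in the G-CSF pair. Of the 75 lower hairpins 52 were called lower in all 3 pairs (38 read-sharing groups). Of the 30 higher ones 3 were called higher in all 3 pairs, mir-2137, mir-1948 and mir-215. The 2-fold threshold split mir-215 from mir-192, of the same read-sharing group. In the control pair mir-215 stood at 3.58% against 1.77% and was called, and mir-192 at 3.70% against 1.93% was not.

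Of the 30 higher hairpins 20 were called higher in the G-CSF pair and 5 in the control pair, where 7 were called lower. mir-378a was 5.595-fold higher under acetaminophen and 3.36-fold lower in the control pair, where its share was 0.447% in cells and 1.502% in tissue. mir-130a was likewise 4.46-fold higher and 2.28-fold lower. mir-21a ran the other way: it held 14.2% of control hepatocyte counts and 0.466% of control liver counts, 30.5-fold higher, but was 2.49-fold lower under acetaminophen. mir-19b-1, of the miR-17-92 cluster, was 10.5-fold higher in the control pair and not called under acetaminophen.

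Whether the acetaminophen difference departed from the other 2 treatments was tested with a material by acetaminophen term in edgeR, which has 1 residual degree of freedom. It called 0 of 296 hairpins (0%), with 1 at an unadjusted p under 0.05 (0.338%), and DESeq2 called 0 with 4 at that level. All 144 hairpins had an adjusted p of 1. The opposite directions of mir-21a and mir-378a in the 2 pairs thus did not pass this test, which does not show that they were alike.

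**Figure D5:**
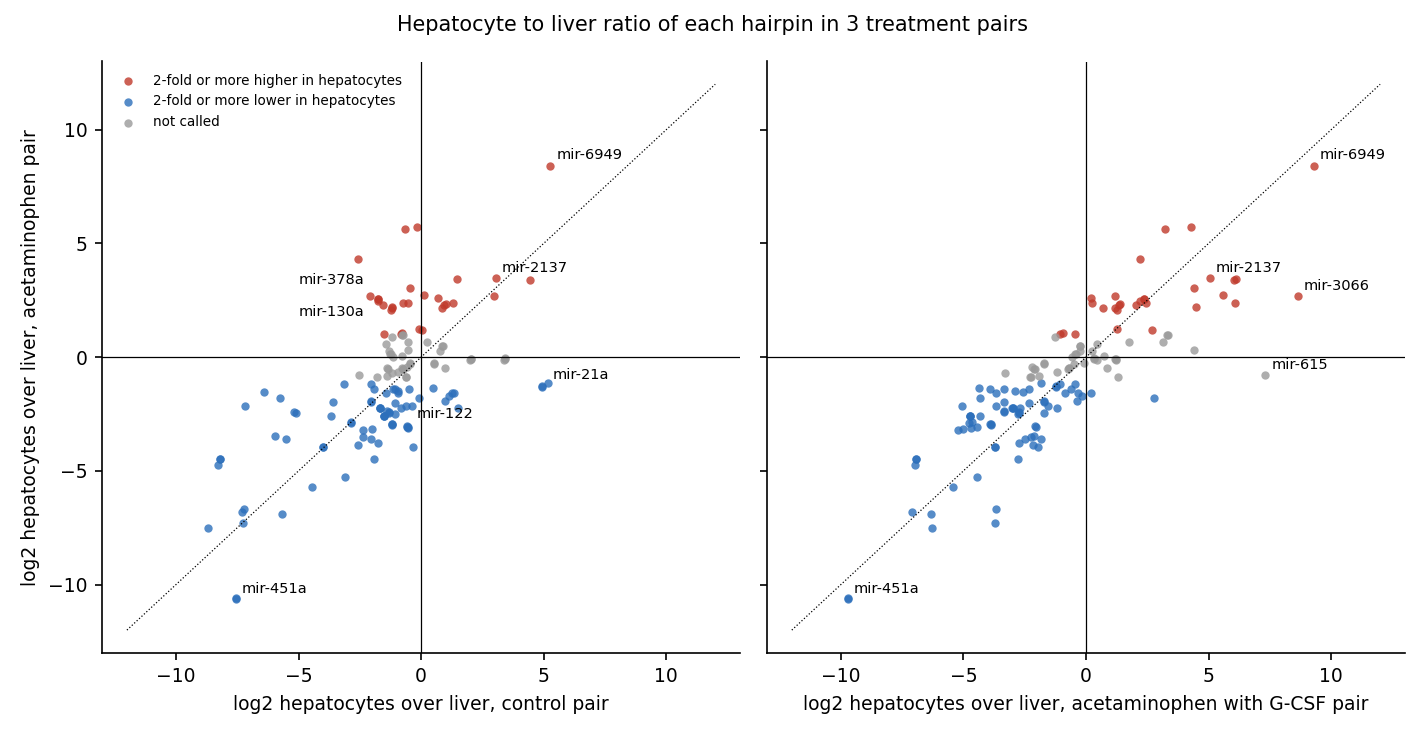
log2 of hepatocytes over liver under acetaminophen (y) against that in the control pair (x, left) and the acetaminophen with G-CSF pair (x, right), 1 point per hairpin coloured by its acetaminophen call; the dotted line marks equal ratios. mir-21a lies at 4.93 in the control pair and -1.32 under acetaminophen, and mir-451a is low in every pair.

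Position in the genome and sequence were compared with the calls for the 117 of 144 hairpins found in the RefSeq table. Of 20 sets of hairpins on one strand within 10000 bases of each other, 13 had 1 call throughout. mir-23b, mir-27b and mir-24-1, cut from a common transcript within chr13:63300484-63301275, had a log2 range of 1.91, and only mir-23b was called. Of the 20 seeds held by at least 2 tested mature microRNAs, 6 were lower in all members, 3 higher in all and 7 uncalled in all. None held both directions. Agreement within a seed is partly built in, because reads were divided among near-identical strands. For example, miR-103-3p and miR-107-3p each had 5 counts in hepatocytes and 65 in liver. Over all 113 tested mature microRNAs, 17.7% were higher and 41.6% lower. The 8 let-7 strands and miR-98-5p, which have the seed GAGGUAG, had log2 ratios from -3.63 to -2.22. In the family of miR-148a, miR-148b and miR-152, 0 of 3 hairpins were called by share of the column and all 3 were called higher under TMM and DESeq2 factors, and all 3 mature strands with the seed CAGUGCA were higher, by 1.15 to 1.28 on the log2 scale. Within the 3 miR-30 strands found in RefSeq, with the seed GUAAACA, miR-30c-5p was higher, and miR-30a-5p and miR-30e-5p were not called. miR-30b-5p and miR-30d-5p of the same family were not found there. Of these, miR-30b-5p was called higher, at 3.67-fold, and miR-30d-5p was not called. Median GC content of the hairpins was 46.5% for higher, 47.2% for lower and 51.2% for uncalled ones.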

How the data were processed

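Small RNA from acetaminophen-treated primary hepatocytes and acetaminophen-treated mouse liver was analysed from the tables the authors deposited. Total RNA was purified with a Norgen kit and libraries came from the Ion Total RNA-Seq Kit v2 (labels' protocols). Per the file headers, each value is an estimated count (expected count) of a hairpin or mature miRNA as the authors deposited it, not scaled to depth and with the PGM and Proton libraries of a condition combined. No source used here names the aligner, annotation release or genome build. Columns were matched to groups by name, and 0 per-sample columns were left unmapped.

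The members and lists were chosen with earlier results of these data known. Shares of the column total were compared as ratios with exact conditional (Clopper-Pearson) 95% intervals and called at 2-fold with the interval excluding 1. Hairpins needed 100 counts and mature miRNAs 10 counts in either column. A count that rounded to 0 was set to a floor of 3 counts, and its fold depends on that floor. Shares carry Wilson intervals. With 1 column per side this comparison has no test and no p-value. Reads are not molecules, so intervals and floors cover counting error only.

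edgeR 4.0.16 (quasi-likelihood, TMM, filterByExpr) was fitted to rounded counts of 6 columns with treatment as a block, and again with a material by acetaminophen term, with Benjamini-Hochberg adjustment over all hairpins tested. DESeq2 was an alternative. Treatments stand in for replicates there. With treatment as a block, the p-values rest on how the hepatocyte to liver difference varied over treatments, not on spread between replicates. The fit and the intervals were run on simulated counts. These had independent columns with no treatment effect for the fit, and counting error only for the intervals. They could check the code, but not whether the methods hold for these columns. Hairpins were named by rule: mir-122, the 10 largest shares in each column, the 12 largest folds in each direction and up to 4 members of each of 31 lists. A few others are named for a threshold, a neighbour or an exception and were chosen after their values were seen. Alternatives were other scalings, count minimums, fold thresholds, tests and treatments left out. Counting read-sharing groups once and keeping only hairpins with mature arms were chosen after seeing the data. Sequences came from RefSeq (GRCm38.p6), which held 117 of 144 hairpins and 96 of 113 tested mature miRNAs. Hosts and coordinates are those of GRCm38.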

Additional observations from a re-analysis of the deposited data

Results flagged for a closer look

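In 11 hairpins, read-sharing groups counted once, the hepatocyte to liver difference was called in opposite directions in the acetaminophen and the control pair. These 11 are not all independent, because the grouping joins only hairpins with near-equal counts. Near-copies such as mir-21a and mir-21b, and mir-29b-1 and mir-29b-2 with their common mature strand, were counted separately. The change in log2 ratio, acetaminophen minus control, was -6.24 for mir-21a, -6.35 for mir-21b, -3.75 for mir-29b-2, -2.87 for mir-29b-1, -2.91 for mir-17 and -2.85 for mir-106a. It was 4.23 for mir-378a, 3.41 for mir-1895, 3.35 for mir-130a, 3.28 for mir-130c and 2.54 for mir-193a. Between the acetaminophen and the G-CSF pair 2 hairpins were called in opposite directions, mir-3960 with -4.57 and mir-194-2 with 2.07. The direct test of such a difference, edgeR's material by acetaminophen term against the other treatments together, gave each of the 13 an adjusted p of 1, with unadjusted p from 0.209 for mir-3960 to 0.820 for mir-1895.

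In exosomes released by hepatocytes, which the comparisons above do not use, mir-2137 had 44 hairpin counts under acetaminophen, 26.3% of that column, against 21 counts and 2.31% in control. mir-1895 had 11.3 counts (6.77%) against 10 counts (1.10%) there. These exosome columns are far shallower than those of the cells.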

How the results depend on the processing

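Of 87 named hairpins, the log2 ratio stayed within its counting interval for 12 under TMM factors and 9 under DESeq2 size factors. It did so for 56 without mir-122 in the totals and 67 without the repeat-like and abundant-RNA-like entries. Summed mature arms had enough counts for only part of the 87. There 9 stayed within the interval, 65 moved outside it and 1 reversed. Among these, the one called ratio that reversed was mir-6238, at -1.23 in summed mature arms; mir-5121, outside the naming rule, also reversed there, at -1.14. Lower calls were 45 of the 94 hairpins with 300 or more counts, against 75 of 144 in the main setting. Higher calls were 17 of the 114 hairpins with 10 or more mature counts, against 30 of 144. That last setting was chosen after seeing the data. In the mature table lower calls fell to 22 with TMM factors and 19 with DESeq2 size factors, whose log2 shifts were 0.59 and 0.94, and 24 and 27 were higher. Over the 3 treatments the DESeq2 Wald test called 45 higher and 48 lower, DESeq2 size factors in edgeR 7 higher, the fit to mature miRNAs gave 8 lower, and the fit with no treatment block 7 higher and 31 lower. Without filter 22 of 1058 hairpins were called and mir-2137 had an adjusted p of 0.0501; with no treatment block mir-2137 and mir-1224 had 0.0608 and 0.0928. Leaving out 1 treatment gave 0 to 48 higher and 0 to 42 lower: 0 and 0 without the G-CSF columns, 2 and 9 without the acetaminophen columns, 48 and 42 without the controls. There mir-451a had an adjusted p of 0.0544 without the G-CSF columns and 9.06e-11 without the controls. The cause of these shifts was not tested. The material by acetaminophen term called 0 in each of the 4 alternatives, and leaving out a treatment from it was not run, as it leaves no residual degrees of freedom. The columns carry no replicate numbers, and the treatment block is what pairs each hepatocyte column with its matching liver. Depth limits the mature table: with 5330 counts in hepatocytes a strand at 0 there can have a share of up to 3 counts in that total.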
